A study of Mus musculus with 2 samples.

Results

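The genes described here are the chemokines and the chemokine receptors, chosen by gene name alone. They were all probe sets whose only annotated gene symbol began with Ccl, Cxcl, Cx3cl, Xcl, Ccr, Cxcr, Cx3cr or Ackr and a number. The rule found 85 of 45101 probe sets, which stand for 53 of 18193 named genes: 33 ligand genes with 51 probe sets and 20 receptor genes with 34 probe sets. RNA came from the mouse epithelial cell lines that the labels call Mlesico and Mle29c, with 1 oligonucleotide array per line. Both were grown in DMEM with serum, and the labels give no treatment. The series is about miR-29c in lung fibrosis, and the labels state neither the origin of the lines, nor whether each is a clone, nor how miR-29c differs between them.

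Chemokines are small secreted proteins that draw cells along a gradient. They are grouped by the spacing of cysteines near the start of the mature protein (CC, CXC, CX3C and XC), and they act through receptors that couple to inhibitory G proteins. Atypical receptors (Ackr genes) bind chemokines without that coupling and take them up. Airway and alveolar epithelium is a known source of chemokines for neutrophils, dendritic cells and lymphocytes, while most of the classical receptors are carried by leukocytes.

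A probe set is a group of short probes for 1 transcript, summarised as 1 signal. The deposited values were centred by the authors for each probe set, so the value in Mlesico is the mirror image of the value in Mle29c, and the absolute level is lost. Ratios below were formed by subtracting Mlesico from Mle29c on the log2 scale, so that a positive ratio is higher in Mle29c. The log base is not stated and was taken as 2. With 1 array per line there is no replicate spread, no test and no p-value, and a difference counts as called when it is at least 2-fold. The SD between measured probe sets of the same gene was 0.62 in log2 ratio over 6902 genes. It is a spread inside this pair of arrays and not one between replicate arrays.

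Because weak signals vary widely, each probe set was given a signal class from the rounding of its numbers. Single-precision numbers are stored in coarser steps when they are larger. The high class stands for a mean log2 signal of 8 or more (a signal of 256), the middle class for 4 to 8, and the low class for less than 4 (a signal under 16). A class read from the sum of both values fixes a lower bound on the mean signal and is called settled here. A class read from the step alone can be too high by chance: an estimated 57.9% of the high classes read that way are true, and 8.63% belong in the low class. No such share was estimated for middle classes read from the step, which lie next to the low class. High and middle probe sets are called measured, and low ones dim. The value of a gene is the median over its measured probe sets.

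In the whole series the medians of both columns were 0, and the median log2 ratio of the 14827 measured genes was 0.00. Of those genes, 15.6% were past 2-fold, 8.41% higher and 7.18% lower in Mle29c. Ribosomal protein probe sets were in the high class in 85.4% of 96 cases and olfactory or vomeronasal receptor probe sets in 7.5% of 80. Of 15 epithelial markers 13 were measured, Krt8, Krt18, Epcam and Cdh1 among them, and Cldn4 and Ocln were dim. Only 2 of the 15 had a settled high class.

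Chemokine probe sets were dim more often than those of the array as a whole. Of the 85 probe sets 31 (36.5%) were dim, against 21.5% of all 34945 probe sets with 1 gene. In the high class were 23 (27.1%, against 47.9%), and only 6 of those were settled: 2 each for Ackr4 and Cxcl1 and 1 each for Cxcl15 and Cxcl16. At least 1 measured probe set was present for 40 of the 53 genes. The other 13 were Ccl1, Ccl2, Ccl3, Ccl7, Ccl8, Ccl12, Ccl22, Ccl24, Cxcl2, Cxcl12, Ccr3, Ccr4 and Ccr10. All of these had, in at least 1 of the arrays, a signal under 16.

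Among the 40 measured genes, 4 were higher and 4 lower in Mle29c by 2-fold or more. The higher genes were Ccr7, Ccl6, Ackr3 and Ccl11, and the lower ones were Ccl20, Ccl5, Ccl25 and Cxcl10. That is 10.0% in each direction, near the share among all measured genes (8.41% higher and 7.18% lower). Of the 8 genes, 7 rested on 1 measured probe set, and 3 (Ccl5, Ccl25 and Ackr3) had a probe set with a settled class. The settled probe set of Ccl25, at -0.97, was itself within 2-fold. Another 7 genes lay just inside the threshold, with ratios of 0.9 to 1 in size, 5 of them above 0 and 2 below.

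**Figure D1:**
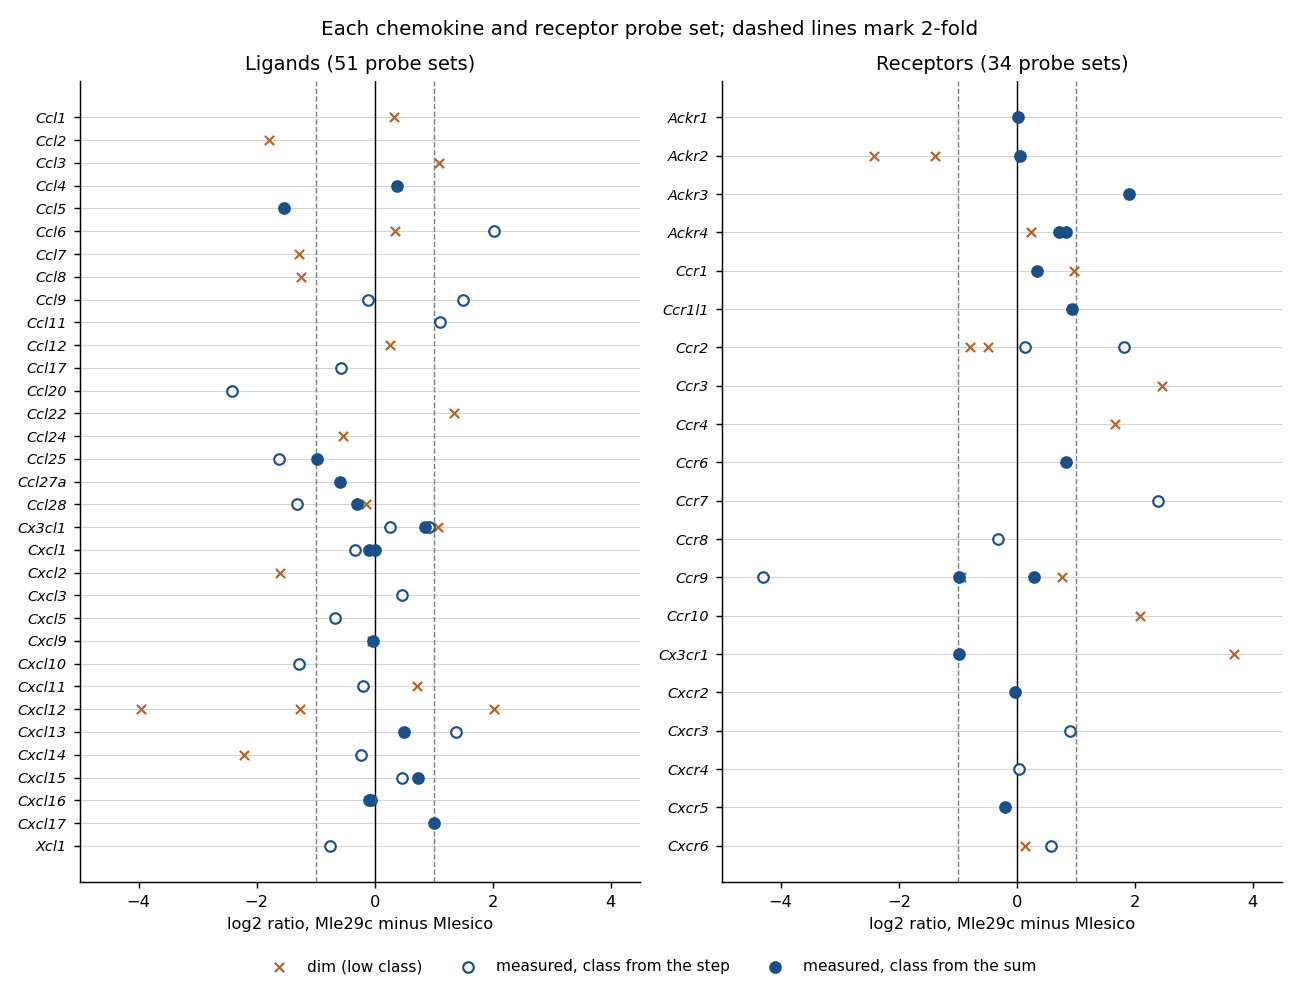
Log2 ratio (Mle29c minus Mlesico) of each of the 85 probe sets, ligands in the left panel and receptors in the right panel. Filled circles are measured probe sets with a settled class (from the sum), open circles measured ones with a class from the step and crosses dim ones; the widest ratios are an open circle of Ccr9 (-4.29) and crosses of Cxcl12 (-3.97) and Cx3cr1 (3.67).

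The share past 2-fold differed between signal classes. The class is not independent of the ratio, since a wide ratio can bring 1 of the arrays under the low limit. Part of the difference is therefore built in. Among dim chemokine probe sets 17 of 31 (54.8%) were past 2-fold, 8 higher and 9 lower, against 58.1% of all dim probe sets. In the middle class it was 7 of 31 (22.6%), against 22.8%. Middle probe sets classed from the step had 5 of 11 past 2-fold (45.5%, against 27.1% of all such probe sets). Settled middle ones had 2 of 20 (10.0%, against 20.4%). In the high class the share was 6 of 23 (26.1%), against 10.5%, and all 6 of those had a class from the step. None of the 6 settled high probe sets was past 2-fold. Of the 26 measured probe sets with a settled class, 1 was higher (Ackr3) and 1 lower (Ccl5) by 2-fold, where 13.1% of all 12913 such probe sets were past it in either direction.

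**Figure D2:**
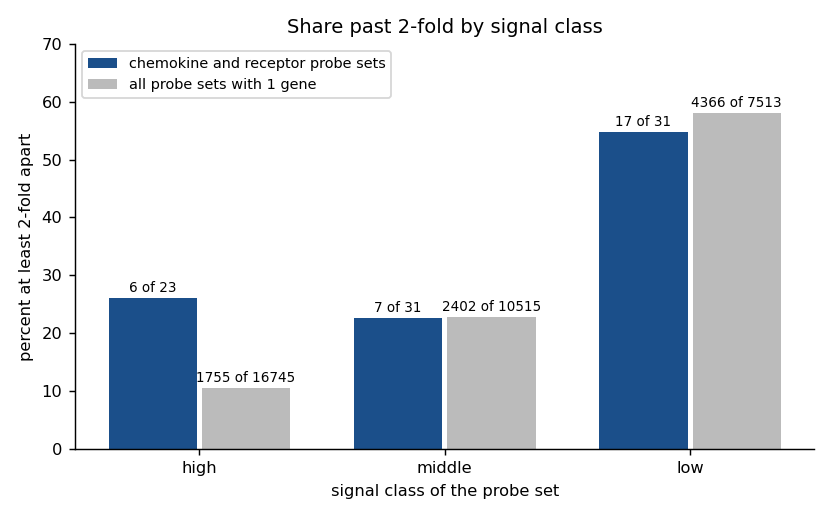
Percent of probe sets at least 2-fold apart in each signal class, for chemokine and receptor probe sets and for all probe sets with 1 gene, with the counts above the bars. The bars nearly match in the middle and low classes; in the high class 6 of 23 chemokine probe sets stand against 10.5% of all.

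Grouped first were 4 CC ligands that epithelia make, or that guide lymphocytes and dendritic cells to epithelia, and these 4 lay below 0. The grouping was made with earlier results of these data known. It is not a full list of epithelial CC ligands, and 4 of all 10 measured Ccl genes were above 0, Ccl11 at 1.11 among them. Ccl20, which attracts dendritic cells and Th17 cells through Ccr6, was 5.32-fold lower in Mle29c. Its only probe set had centred values of 1.21 in Mlesico and -1.21 in Mle29c, a log2 ratio of -2.41, and its high class came from the step. Ccl25, a ligand of Ccr9 best known from thymus and gut, stood at -1.30. Its probe sets were at -1.62, with a class from the step, and at -0.97, with a settled class. These lie on the same side of 0 and differ by 0.65. Ccl28, a mucosal chemokine, stood at -0.80, but its measured probe sets were apart, at -1.31 and -0.29, and a dim one was at -0.15. Ccl27a, known from skin keratinocytes, was at -0.58. Its probe set is of a kind that may match related transcripts, and 2 further probe sets that list Ccl27a with Ccl27b, left out by the rule, were at -0.64 and 0.15. The 4 genes had a median of -1.05, from Ccl20 at -2.41 to Ccl27a at -0.58.

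The CC ligands of macrophages and T cells went both ways. Ccl5, which draws T cells and monocytes, had centred values of 0.77 in Mlesico and -0.77 in Mle29c, a ratio of -1.53 or 2.89-fold lower, in a settled middle class. Ccl6, a myeloid chemokine of rodents, stood at 2.02 (4.05-fold higher) in its middle-class probe set and at 0.34 in a dim one. Its centred values in the former were -1.01 in Mlesico and 1.01 in Mle29c. That probe set has an identifier ending in _s_at, which marks probes that may match several transcripts. The related gene Ccl9 had probe sets at -0.12 and 1.49, which disagree in sign and lie 1.61 apart around its gene value of 0.69. Ccl4 stood at 0.38, and Ccl3, which binds Ccr1 and other receptors, had only a dim probe set at 1.08.

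None of Ccl2, Ccl7, Ccl8 and Ccl12, a group of related CC ligands known for attracting monocytes, was measured. Their dim probe sets were at -1.78 for Ccl2, -1.29 for Ccl7, -1.25 for Ccl8 and 0.27 for Ccl12. Of all dim probe sets on the array, 58.1% were past 2-fold. The eosinophil attractant Ccl11 stood at 1.11 (2.16-fold higher; centred values of -0.56 in Mlesico and 0.56 in Mle29c) in a probe set whose high class came from the step, and its relative Ccl24 was dim at -0.54. Ccl17, a Ccr4 ligand, was at -0.57, its partner Ccl22 was dim at 1.34, and Ccl1, the ligand of Ccr8, was dim at 0.33. Over all 10 measured Ccl genes the median was -0.58, with 2 higher, 3 lower and 4 above 0.

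The measured CXC ligands for neutrophils lay on both sides of 0, and none passed 2-fold. Cxcl1, a main neutrophil attractant and the only ligand with 2 settled high-class probe sets, had 3 high-class probe sets at -0.33, -0.10 and 0.00, and its settled ones were those at -0.10 and 0.00. Cxcl5, an epithelial neutrophil attractant of the lung, was at -0.67, and Cxcl3 was at 0.46. Cxcl15, called lungkine and known from lung epithelium, was at 0.60, with probe sets at 0.45 and 0.74. Cxcl2 had a single dim probe set at -1.60. All 4 measured genes of this group were within 2-fold, from -0.67 to 0.60, where 15.6% of all measured genes were past it. At a limit of 1.5-fold, Cxcl5 (1.59-fold lower) and Cxcl15 (1.51-fold higher) passed. Of all measured genes, 16.6% were higher and 15.1% lower at that limit.

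The 3 CXC ligands induced by interferon, which act on Cxcr3, were all below 0. Cxcl10 was 2.43-fold lower in Mle29c, with centred values of 0.64 in Mlesico and -0.64 in Mle29c and a ratio of -1.28 from 1 middle-class probe set. Its neighbours Cxcl9 and Cxcl11 were at -0.03 and -0.20, and the dim probe set of Cxcl11 lay on the other side of 0, at 0.72. Of the 3, only Cxcl10 passed 2-fold.

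Among the remaining CXC ligands, Cxcl17, a mucosal chemokine of airway epithelium, stood at 0.997 and just missed 2-fold, in a settled middle class. Cxcl13, a B cell attractant, was at 0.93, with probe sets at 0.49 and 1.38. Cxcl16, a membrane-bound ligand of Cxcr6, was near 0, with probe sets at -0.09 and -0.06. Cxcl14 was at -0.22 in its high-class probe set and at -2.22 in its dim one. Cxcl12, which holds stem cells and leukocytes in tissues through Cxcr4, has no gene value here: its 3 dim probe sets were at -3.97, -1.26 and 2.02. Over 11 measured Cxcl genes the median was -0.08, with 1 lower and none higher. The median of Ccl genes lay 0.50 below that of Cxcl genes, a gap that could not be tested.

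Cx3cl1, called fractalkine, is made as a membrane-bound adhesion molecule and shed as a chemoattractant. It had the most probe sets of any ligand, at 0.27, 0.84, 0.91 and, in a dim one, 1.07, all above 0. Its gene value of 0.84 did not reach 2-fold. Xcl1, a lymphocyte chemokine, was at -0.75 in a probe set classed from the step.

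**Figure D3:**
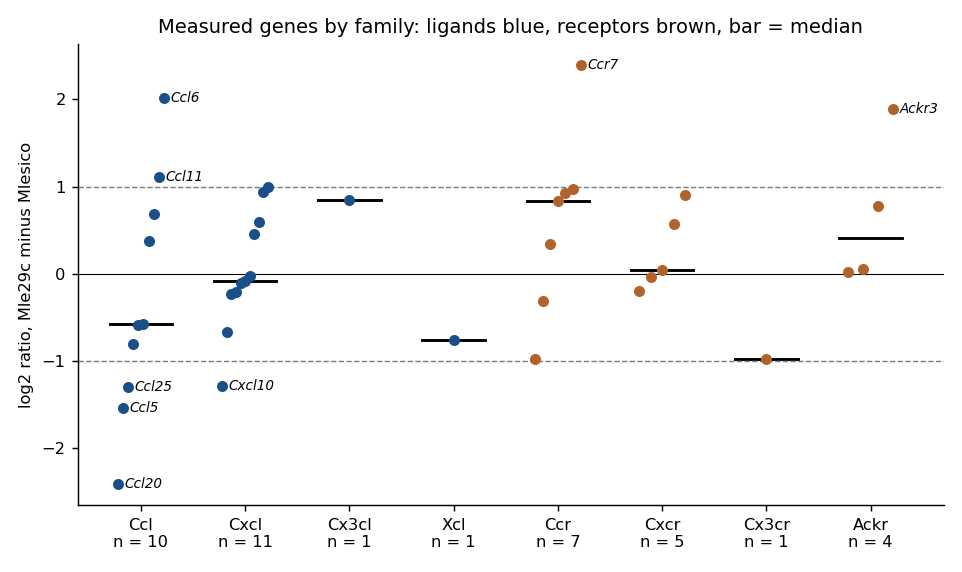
Log2 ratio (Mle29c minus Mlesico) of the 40 measured genes by family, ligands in blue and receptors in brown, with a bar at each family median and the 8 genes past 2-fold named. Ccl genes spread from -2.41 to 2.02 around a median of -0.58, while 10 of 11 Cxcl genes lie within the dashed 2-fold lines.

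Among the classical receptors only Ccr7 passed 2-fold. Ccr7, which guides dendritic cells and naive T cells into lymph nodes, had centred values of -1.198 in Mlesico and 1.198 in Mle29c, a ratio of 2.40 or 5.26-fold higher, from 1 middle-class probe set read from the step. Its ligands Ccl19 and Ccl21 were outside the rule, since their probe sets list several gene copies, and were dim at -0.70 and 0.18. Ccr2, the receptor for Ccl2, had measured probe sets at 1.82 and 0.14 and dim ones at -0.80 and -0.48, so its gene value of 0.98 turns to -0.17 when every probe set is kept. Ccr6, the receptor for Ccl20, was at 0.83 in a settled middle class, opposite in sign to its ligand. Ccr1 stood at 0.34 and Ccr1l1, a related gene, at 0.93.

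Ccr9 shows how far probe sets of a gene can disagree. This receptor for Ccl25 had 3 measured probe sets at -4.29, -0.97 and 0.29 and dim ones at -0.95 and 0.76. The widest came from a class read from the step, and the settled ones were those at -0.97 and 0.29. Cx3cr1, the receptor for fractalkine, was at -0.98 in a settled middle-class probe set and at 3.67 in a dim one. Ccr8 was at -0.31. Ccr3, Ccr4 and Ccr10 were dim, at 2.46, 1.66 and 2.09.

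The 5 receptors of the Cxcr family were all within 2-fold. Cxcr4, the receptor for Cxcl12 and the one found most often on epithelial cells and tumours, was at 0.04 from 1 middle-class probe set. Cxcr2, the receptor for the neutrophil attractants, was at -0.03, and Cxcr5, the receptor for Cxcl13, at -0.20. Cxcr3, the receptor for the interferon-induced ligands, was at 0.91, and Cxcr6, which binds Cxcl16, at 0.58.

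All 4 atypical receptors were above 0. Ackr3, which binds Cxcl11 and Cxcl12 and degrades the latter, had centred values of -0.95 in Mlesico and 0.95 in Mle29c, a ratio of 1.89 or 3.72-fold higher. Its probe set, the only one for the gene, was in a settled middle class; as with Ccl6, its identifier ends in _s_at. Ackr4, a scavenger of Ccl19, Ccl21 and Ccl25, was the only receptor with settled high-class probe sets, at 0.71 and 0.84 in settled high classes, and a dim one at 0.23. Its value of 0.77 was within 2-fold. Ackr1, the Duffy antigen receptor, was at 0.02. Ackr2, a scavenger of inflammatory CC chemokines, was at 0.05 in a settled probe set, and its dim ones were at -1.39 and -2.42.

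As groups, ligands had a lower median ratio than receptors. The 23 measured ligand genes had a median of -0.10, with 9 above 0, 2 higher and 4 lower by 2-fold. The 17 measured receptor genes, atypical ones included, had a median of 0.34, with 12 above 0, 2 higher and none lower. Among all measured genes the median was 0.00 and 50.4% were above 0. The medians of ligands and receptors differed by 0.45, and no test was possible. Settled probe sets alone put the ligand median at -0.04 and the receptor median at 0.05, a gap of 0.09. The gap was 0.20 without probe sets that may match several transcripts. It was wider, at 0.79, with every probe set kept, and 1.07 in the high class, which holds only 3 receptor genes. Receptors had the higher median under each of these settings. Of the dim probe sets, 4 of 18 dim for ligands were higher and 7 lower by 2-fold, and 4 of 13 for receptors were higher and 2 lower.

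Ligands were then set beside the receptors they are known to bind. Both partners were measured in 16 of 30 pairs, which share members with each other. The pairs were taken from general knowledge, with earlier results of these data known. In none of the 16 were both past 2-fold, and in 11 the partners lay on opposite sides of 0. Since only 2 of 17 measured receptors were past 2-fold, few pairs could have had both partners past it. Of all measured ligands 39.1% were above 0 and of receptors 70.6%. The 11 include partners close to 0, such as Cxcr2 and Cxcl9 at -0.03 and Cxcl16 at -0.08. Ccl20 and Ccr6 stood at -2.41 and 0.83, Cxcl10 and Cxcr3 at -1.28 and 0.91, and Cx3cl1 and Cx3cr1 at 0.84 and -0.98. Ccl25 lay on the same side as Ccr9 (-1.30 and -0.97) and opposite to Ackr4 (0.77). Cxcl1 and Cxcr2 were both near 0, at -0.10 and -0.03.

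Probe sets of a gene agreed unevenly. Of 11 member genes with 2 or more measured probe sets, 4 (Ccl9, Ccl28, Ccr2 and Ccr9) had them 2-fold or more apart, or 36.4% against 24.0% of all such genes. In Ccl9 and Ccr9 they also lay on both sides of 0 (18.2%, against 16.9%). With dim probe sets counted, 6 of 20 genes had probe sets 2-fold apart on both sides of 0: these and Cxcl12, Cx3cr1, Ackr2 and Ccr2. Of all genes with 2 or more probe sets, 28.9% did. Among measured probe sets alone, those of Cxcl16, Ackr4, Cxcl15 and Cxcl1 lay closest, with ranges of 0.03, 0.13, 0.29 and 0.33.

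Many of these genes are neighbours in the genome (gene order and chromosomes from the GRCm38.p6 gene table). The 9 Cxcl genes of chromosome 5 did not move together: 3 of 8 measured were above 0, and Cxcl10 at -1.28 lay between Cxcl9 at -0.03 and Cxcl11 at -0.20. Of the 11 Ccl genes of chromosome 11 only 5 were measured, 4 of them above 0, with a median of 0.69. Those 4 are all the measured Ccl genes above 0, and the measured ones on other chromosomes lay below it. Ccl5 at -1.53 was followed by Ccl9 at 0.69 and Ccl6 at 2.02. The 12 receptor genes of chromosome 9 had a median of 0.20 over 10 measured, with 6 above 0. The median of all measured genes was -0.25 on chromosome 11, -0.01 on chromosome 5 and 0.00 on chromosome 9. Set against the median of its chromosome, Ccl5 stood at -1.28, Ccl6 at 2.26, Ccl11 at 1.36 and Ccr7 at 2.64. Of the 40 measured genes 5 were then higher and 4 lower by 2-fold, against 7.95% and 7.23% of all measured genes.

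**Figure D4:**
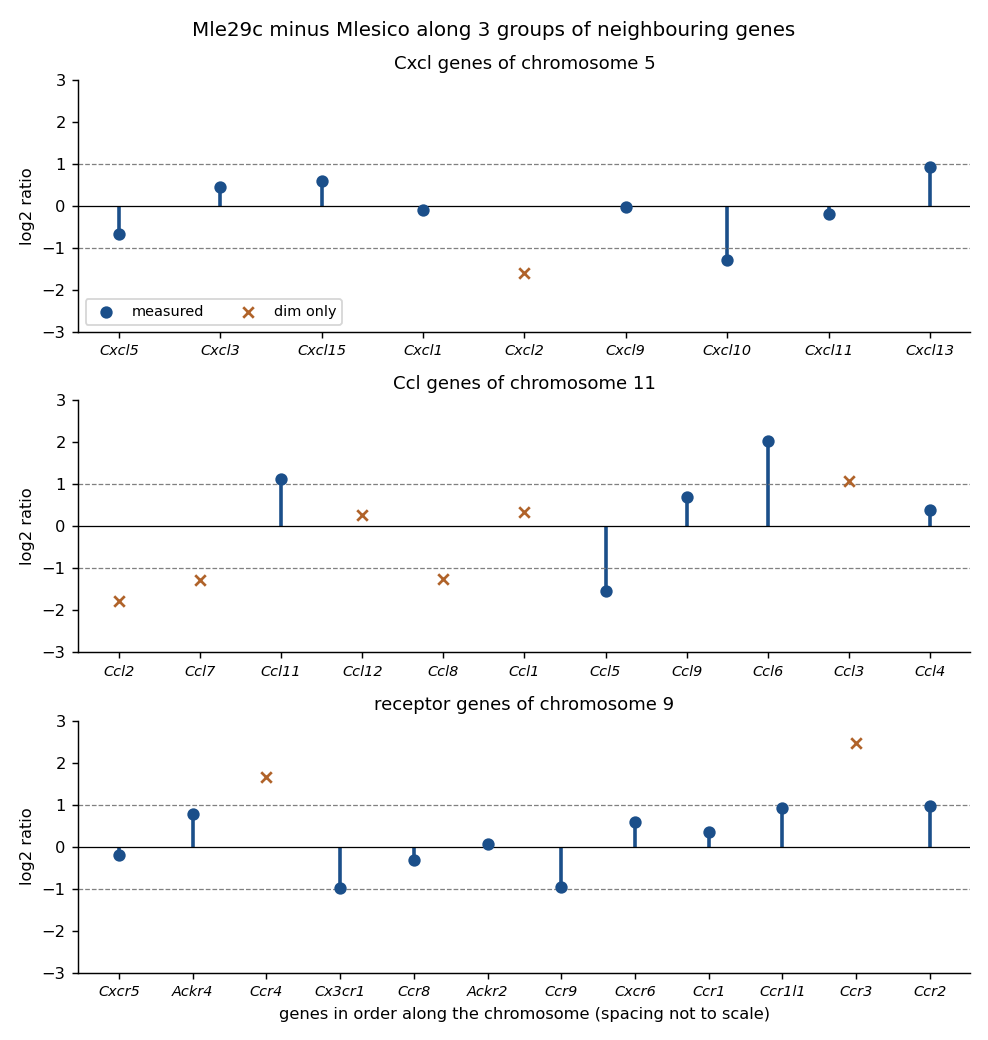
Log2 ratio of the Cxcl genes of chromosome 5, the Ccl genes of chromosome 11 and the receptor genes of chromosome 9, in gene order and not to scale. Circles are measured genes and crosses genes with dim probe sets only; neighbours such as Ccl5 (-1.53) and Ccl9 (0.69) lie on opposite sides of 0.

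Many chemokine genes are induced by NF-kB, a transcription factor of inflammation, and a search for its consensus found matches in promoters of Cxcl1, Cxcl2, Cxcl3, Cxcl10 and Ccl20. A match is a description of the letters and not a bound site. The windows below are shown because these ligands share a promoter feature but not a ratio. They come from RefSeq promoters (GRCm38.p6, 250 bases before to 50 after the start), run 5′ to 3′ on the strand of the gene, and have matches to the 10-base NF-kB consensus, on either strand, in capitals. The windows are chr5:90891144-90891214 (+) for Cxcl1, chr5:90903772-90903842 (+) for Cxcl2, chr5:90785998-90786068 (+) for Cxcl3, chr5:92348953-92349078 (-) for Cxcl10 and chr1:83116656-83116725 (+) for Ccl20.
Cxcl1: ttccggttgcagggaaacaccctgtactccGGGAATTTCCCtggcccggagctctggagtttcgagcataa
Cxcl2: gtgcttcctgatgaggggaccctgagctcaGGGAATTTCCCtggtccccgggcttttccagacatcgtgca
Cxcl3: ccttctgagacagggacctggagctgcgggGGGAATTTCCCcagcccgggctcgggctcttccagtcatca
Cxcl10: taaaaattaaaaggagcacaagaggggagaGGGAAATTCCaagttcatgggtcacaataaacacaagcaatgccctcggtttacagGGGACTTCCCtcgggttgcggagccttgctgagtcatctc
Ccl20: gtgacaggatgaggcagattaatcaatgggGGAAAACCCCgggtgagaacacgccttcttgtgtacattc

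Cxcl1, Cxcl2 and Cxcl3 carry the same match, read on both strands with an overlap, which begins 71, 97 and 73 bases before the start. Cxcl10 has 2 separate matches, beginning 159 and 103 bases before the start, and Ccl20 has 1, 80 bases before it. Of the 53 genes 40 had a RefSeq promoter, and 10 of these (25%) held a match, against 5.14% of all 27025 genes in the table. A match went with no single direction: Ccl20 was at -2.41 and Cxcl10 at -1.28, while Cxcl1 was at -0.10, Cxcl3 at 0.46, Ccl9 at 0.69 and the receptor gene Ccr6 at 0.83. Of the 10 genes, 2 were lower by 2-fold, 6 were within it and 2 were dim.

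Genes listed as NF-kB and cytokine inputs to chemokine genes mostly had values within 2-fold. Whether they act on these promoters was not tested. Of all measured genes, 8.41% were higher, 7.18% lower and 50.4% above 0. Of 31 genes of NF-kB and of the cytokine receptors upstream of it, 28 were measured (the other 3 were not analysed here), 1 was higher and none lower, with a median of -0.07 and 8 above 0. The higher gene was Il1r1, the interleukin-1 receptor, at 3.32 from 1 probe set. The lowest was the NF-kB subunit gene Rel at -0.95. Single measured probe sets went further, such as 1 of Il1rap at -2.98 and 1 of Ikbkb at 2.31. The inhibitor genes Nfkbia and Tnfaip3, themselves NF-kB targets, were at -0.18 and -0.36, and the subunit gene Rela was at -0.30.

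Genes that act below the receptors went both ways. The shares over all measured genes were 8.41% higher and 7.18% lower by 2-fold. Of 24 measured G protein and effector genes, 2 were higher and 2 lower (median 0.02): the phospholipase gene Plcb4 at 2.59, with 3 probe sets from 2.23 to 2.83, the PI3-kinase subunit gene Pik3r5 at 1.71, the inhibitory G protein gene Gnai1 at -1.53, with probe sets from -2.35 to 0.61, and the Rac activator gene Prex1 at -1.50. Gnai2 and Gnai3, the other inhibitory G protein genes, were at 0.17 and 0.27. Genes that switch receptors off had 2 higher and 2 lower of 13 measured (median -0.17). The receptor kinase gene Grk3 was at 3.05 and Rgs16, which shortens G protein signals, at 2.22. Rgs2 stood at -1.82 in 3 probe sets, all below 0, and Rgs3 at -2.84 with probe sets from -3.67 to 0.14. The arrestin genes Arrb1 and Arrb2 were at 0.16 and -0.28.

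Chemokines are held on cells by heparan sulfate and trimmed by proteases. For comparison with the counts below, 8.41% of all measured genes were higher, 7.18% lower and 50.4% above 0. Of 23 measured genes for heparan sulfate and its core proteins, 2 were higher and 3 lower (median 0.07). The glypican gene Gpc1 was at 4.16 from 1 probe set and Hs3st1, a sulfotransferase, at 1.03, whereas the sulfatase gene Sulf1 was at -3.20 and Gpc4 at -3.003, with probe sets at -3.10 and -2.91. The third lower gene was Sdc2, which encodes a syndecan, at -1.58, named here after its value was seen. Of 12 measured protease and inhibitor genes, Timp1, an inhibitor of matrix proteases, was at 3.80 and Mmp2, a gelatinase that cleaves Cxcl12, at -4.48, each from 1 probe set (median -0.30, 2 above 0). Adam10 and Adam17, the sheddases of Cx3cl1 and Cxcl16, were at -0.36 (probe sets from -1.96 to -0.32) and -0.22. In the list of other chemokine-system genes, not all of them chemokines or their receptors, 11 of 13 were within 2-fold. Cmklr1, the chemerin receptor, was at 3.34 and Cmtm3 at -1.75. Pf4 and Ppbp, platelet CXC chemokines outside the naming rule, were at -0.13 and 0.31, and Mif was at 0.30.

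**Figure D5:**
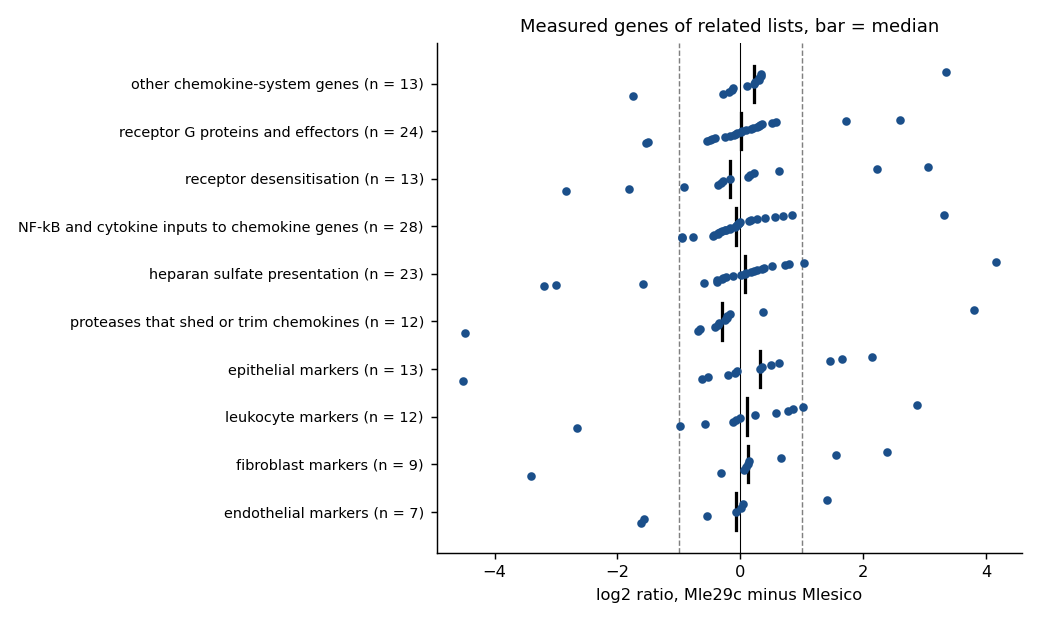
Log2 ratio (Mle29c minus Mlesico) of the measured genes of each related list, with a bar at the median and dashed lines at 2-fold. All 10 medians lie between -0.30 and 0.31, and single genes such as Gpc1 (4.16) and Mmp2 (-4.48) lie far outside.

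Markers of other cells that could bring receptors or ligands were looked at as well. Beside their counts, 8.41% of all measured genes were higher and 7.18% lower by 2-fold. Of 16 leukocyte markers 12 were measured, with 2 higher and 1 lower (median 0.11). Ptprc, the pan-leukocyte gene, was dim, as were Tyrobp and Cd79a, and none of the 16 had a settled high class. Marco, a macrophage scavenger receptor, was at 2.88, Laptm5 at 1.02 with probe sets from -1.60 to 2.06, and Itgax, a dendritic cell integrin, at -2.66. Fibroblast markers had 2 higher and 1 lower of 9, with Postn at 2.39, Col3a1 at 1.55 and Col1a1 at -3.41. Endothelial markers had 1 higher and 2 lower of 7, with Vwf at 1.40, Egfl7 at -1.62 and Tek at -1.57. Epithelial markers had 3 higher and 1 lower of 13, with Sftpb at 2.13, Sftpc at 1.66 and the splicing regulator Esrp1 at -4.51. The part of any of these in the chemokine ratios was not tested, and summed marker levels in each array could not be given from centred values.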

How the data were processed

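RNA of 2 cell lines was measured on 1 array each. Signals were made with MAS5 per the submitters' processing notes, which name no version. What the authors deposited was treated as log2 and had been centred, since the pair of values for any probe set adds up to 0 (tolerance 1e-06). Gene names came from a platform table of 2016 (34945 with a single gene, 932 with several, 9160 with none, 64 array controls), and 34737 of the 34945 were found in a GRCm38.p6 gene table. The log2 ratio, the signal class and the gene medians were computed with Python 3.11.15, pandas 2.3.3 and numpy 2.4.6, and reading of the class was tested on simulated data. Precision is limited by having 1 array per line. Genes were named if a measured probe set passed 2-fold, or from a preset list (Ccl2, Ccl5, Ccl20, Cx3cl1, Cxcl1, Cxcl5, Cxcl10, Cxcl12, Cxcl15, Cxcl16, Cxcr4, Ackr3); of related lists, up to 2 per side past 2-fold. The remaining chemokine genes and a few known list genes were added after their values were seen. Members, roles, pairs and lists were chosen with earlier results of these data known. Alternatives were the probe sets kept, the mean over probe sets, chromosome centring, updated symbols and other thresholds.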

Additional observations from a re-analysis of the deposited data

How the results depend on the processing

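With 1 array per line, no replicate could be left out. No paired analysis was possible because each line has 1 array. The 4 chemokine genes higher and 4 lower became 10 higher and 11 lower when dim probe sets were included, 39.6% of 53 genes against 23.3% of all genes. At a threshold of 1.5-fold there were 14 higher and 9 lower of 40 (all genes: 16.6% and 15.1%), and at 4-fold 2 higher and 1 lower (all genes: 2.66% and 2.31%). Higher genes numbered 2 of 17 in the high class alone (all genes: 6.41%). Without probe sets that may match several transcripts they numbered 2 of 33 (all genes: 8.6%). Among settings chosen after the data were seen, 1 of 23 genes was higher and 1 lower in settled classes alone (all genes: 6.89% and 6.04%). With all of 2 or more probe sets required past 2-fold, 0 of 11 genes were higher and 0 lower (all genes: 1.94% and 1.41%); no test across replicates could be run. The receptor median of 0.34 became 0.68 with every probe set, 0.91 in the high class (3 genes), 0.052 without probe sets that may match several transcripts and 0.052 in settled classes. The Ccl median of -0.58 became -1.31 in the high class (5 genes), and the Cxcl median of -0.08 became 0.23 in settled classes (6 genes). Genes of the related lists past 2-fold numbered 31 of 154 (all genes: 15.6%), and 17 of 110 in the high class alone (all genes: 11.6%). These settings differ by construction in the genes or the limit used; the cause was not tested further. Of 115 values of single named genes, 5 moved by more than the SD between probe sets and no called one changed sign. Of the 8 called genes, however, 7 rest on 1 measured probe set. For Ccl20, Ccr7, Ackr3 and Cxcl10, each with a single probe set, every setting that kept it returned the same value, except chromosome centring. The count therefore says little about how firm the called genes are. Updated symbols gave the same counts and medians.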
